A study of Triticum aestivum with 6 samples.

Results

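The genes examined lie on both sides of the edited TaTFL1-5 loci on chromosomes 5A, 5B and 5D of common wheat. They were chosen by gene identifier (ID), whose number rises along the chromosome in steps of 100. The windows ran from TraesCS5A02G118600 to TraesCS5A02G138600, from TraesCS5B02G117600 to TraesCS5B02G137600 and from TraesCS5D02G126000 to TraesCS5D02G146000, about 100 ID steps on each side of the edited gene. The edited genes are TraesCS5A02G128600 (TaTFL1-5A) on 5A, TraesCS5B02G127600 (TaTFL1-5B) on 5B and TraesCS5D02G136300 (TaTFL1-5D) on 5D. Without the edited genes they held 509 of the 70043 listed genes, 166 on 5A, 174 on 5B and 169 on 5D. The rule used ID numbers and no measured value, though it was set with earlier results of these data known. The question was whether genes beside the edited loci differed between mutant and wild type, and whether they did so more or less than the rest of the same chromosomes.

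Axillary buds, from which wheat tillers grow out, were the source of the sequenced RNA, which was taken from wild-type Fielder, a spring wheat cultivar, and from the tatfl1-5 mutant made in Fielder, with 3 biological replicates each. The mutant was a single triple-null line (aabbdd) that had lost the Cas9 transgene, with a deletion in TaTFL1-5A, a small deletion in TaTFL1-5B and an insertion in TaTFL1-5D, each with a premature stop codon. It came from Agrobacterium-transformed callus and so differs from Fielder by descent through tissue culture as well as by the edits, and the effects of these cannot be told apart with 1 line. Fielder plants carried none of these edits. The sources give the seedling age in 2 different ways. Library totals lay between 13320461 and 17174131 counts. The deposited tables pair no gene ID with a name, and 0 of the listed IDs matched the RefSeq gene table. The tissue was not checked with marker genes, and the neighbouring genes are given by ID and position only.

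TFL1 belongs to the phosphatidylethanolamine-binding protein family. In many plants TFL1 delays flowering and keeps shoot and inflorescence meristems indeterminate, and the related protein FT promotes flowering. Wheat is hexaploid, so most genes have similar copies, called homoeologs, on the A, B and D chromosomes, often in the same order. Cas9 cuts the DNA where its guide RNA matches and a short motif, the PAM, follows. Repair usually leaves a short insertion or deletion. A larger loss of DNA would remove neighbouring genes and their transcripts.

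The windows lie around the sites matched by a pair of guides, which are shown because they fix where the genome was cut. They were read from the overlap of the vector primers in the study's primer list. Both are 20 bases long, and the capitals mark the 12 bases at the 3′ end, next to the PAM, where a match matters most.
Target 1: ggaacctcTTATTGTGGGGC
Target 2: ccatgagcTCTACCCATCAG

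The edited genes had low counts. Counts are given in the order of replicates 1, 2 and 3 throughout. TaTFL1-5A had 9, 14 and 21 counts in the Fielder libraries, against 1, 7 and 5 in those of tatfl1-5 (edgeR's adjusted p = 0.147). TaTFL1-5B had 46, 44 and 31 counts in the Fielder libraries, against 20, 19 and 23 in those of tatfl1-5 (edgeR's adjusted p = 0.131). The groups did not overlap for either gene, yet neither was called. TaTFL1-5D itself was not analysed here.

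Most genes around the edited loci showed no called difference. Of the 509 members, 415 had enough counts to be tested (edgeR's filterByExpr filter), and 40 of these were called, 25 as rises and 15 as falls in the mutant. Calls required a change of more than 2-fold and, in the quasi-likelihood test of edgeR, a p-value under 0.05 after adjustment over all 52228 tested genes. The 40 calls were 9.64% of the tested members, against 13.2% in the rest of 5A, 5B and 5D and 13.7% of all tested genes. Called higher were 6.02% of the members, 7.85% of the rest of these chromosomes and 7.98% of all genes. Called lower were 3.61%, 5.3% and 5.75%, respectively. The differences between these shares were not tested. In bulk buds, fewer cells of a type and less RNA per cell cannot be told apart. Without mutant replicate 3 the number called higher was 16 in place of 25. Without the limit on the fold change, 100 members had an adjusted p-value under 0.05 in edgeR, 59 higher and 41 lower. This was 24.1% of the members, 25.8% in the rest of these chromosomes and 26.5% of all genes. Mutant and Fielder libraries were fully separated for 167 tested members (40.2%), beside 43.3% in the rest of these chromosomes and 43.1% of all genes. By these measures the pooled members were near the background, and by the call their share was lower. The windows were not alike. An adjusted p-value under 0.05 in edgeR was reached by 27.6% on 5A, 28.0% on 5B and 17.2% on 5D. In the rest of each chromosome it was 25.5%, 25.9% and 26.1%. Full separation was seen for 46.5%, 42.7% and 32.4% of tested members, beside 42.7%, 44.4% and 42.8%. The windows were not tested against each other.

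The 94 members that were not tested had at most 40 counts in any library. Of the 509 members, 32 had at most 3 counts in every library of both groups. Another 16 had at most 3 counts in every Fielder library alone and 15 in every mutant library alone, and the highest count of these 31 one-sided genes was 16. None of the members had at most 3 counts throughout one group and at least 10 in every library of the other. Across all 70043 listed genes there were 96 of this kind low in Fielder and 109 low in the mutant. In the 10711 genes of the rest of 5A, 5B and 5D there were 13 and 4. Such genes were thus rare everywhere, and their absence among 509 members does not set the windows apart. The member closest to this limit was TraesCS5A02G126800, 18 steps before TaTFL1-5A, which was named after its values were seen. Fielder libraries held 12, 9 and 12 counts of it and every mutant library 0, and it was not tested because of its low counts.

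The called share was highest in the 5A window and lowest in the 5D window, a difference that was not tested. On 5A, 15 of 127 tested members were called (11.8%), 10 higher and 5 lower, beside 13.3% in the rest of 5A. On 5B, 14 of 143 were called (9.79%), 9 higher and 5 lower, beside 12.9% in the rest of 5B. On 5D, 11 of 145 were called (7.59%), 6 higher and 5 lower, beside 13.3% in the rest of 5D. Each chromosome was also divided into stretches with the ID width of its window, which left 25, 26 and 27 other stretches on 5A, 5B and 5D. Their called shares ran from 7.38% to 22.6% on 5A, from 7.0% to 20% on 5B and from 7.0% to 26.7% on 5D. The windows lay inside these ranges, with 10 stretches below the window on 5A, 7 on 5B and 2 on 5D.

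**Figure D1:**
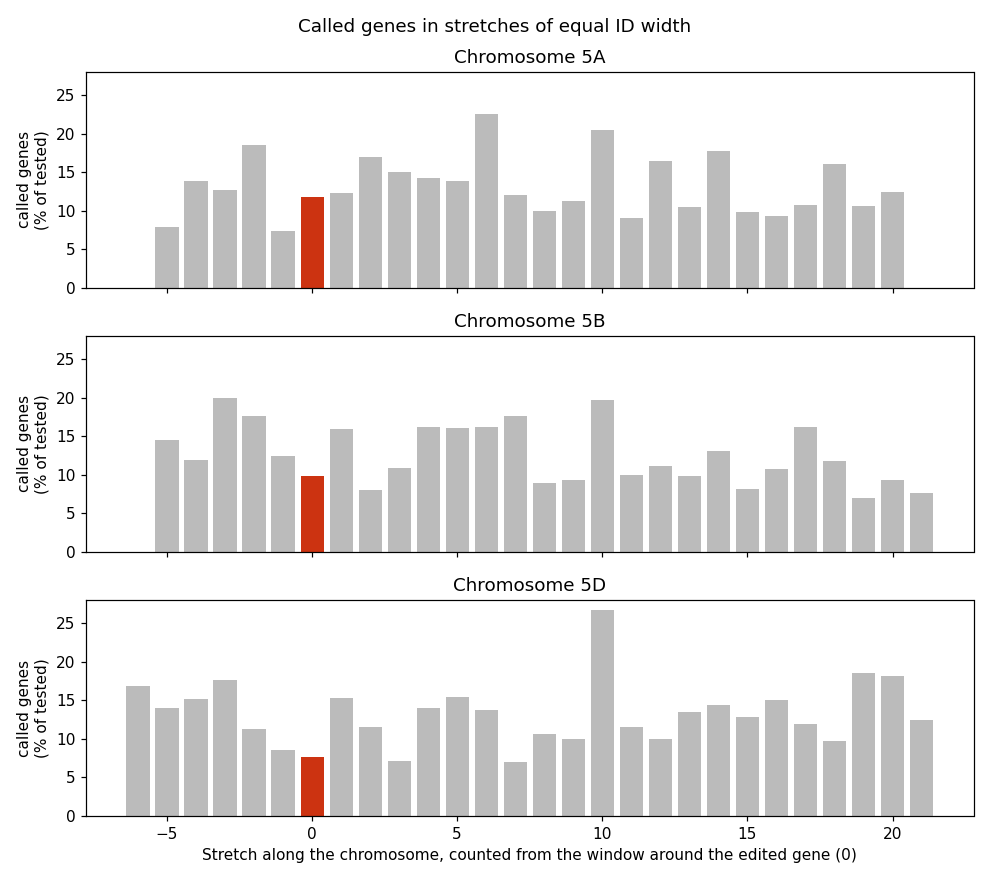
Called genes as a percentage of tested genes in stretches of equal ID width along 5A, 5B and 5D. The red bar at 0 is the window around the edited gene, at 11.8%, 9.79% and 7.59%, and the grey bars are the other stretches, which reach 22.6%, 20% and 26.7%.

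The level of the windows as a whole was nearly the same in both groups. The median log2 fold change of tested members was 0.03 on 5A, 0.08 on 5B and 0.05 on 5D, against 0.02 in the rest of these chromosomes and 0.005 over all tested genes. The quartiles of the members were -0.37 and 0.47, and those of all genes -0.46 and 0.51. The standard deviation of the fold changes was smaller in the windows, at 0.76 on 5A, 0.73 on 5B and 0.66 on 5D. It was 0.91, 0.87 and 0.89 in the rest of the same chromosomes, a difference that was not tested. The quartiles did not lie closer together on 5A, at -0.44 and 0.56 in the window and -0.44 and 0.51 in the rest. On 5B they were -0.31 and 0.46 in the window and -0.43 and 0.54 in the rest. On 5D they were -0.36 and 0.36 in the window and -0.42 and 0.49 in the rest. Among the other stretches, 4 had a smaller standard deviation than the window on 5A, 1 on 5B and 2 on 5D.

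Library by library, the windows did not set mutant and Fielder clearly apart. The median log2 ratio of tested members to the Fielder mean was 0.07, -0.002 and -0.03 in Fielder replicates 1, 2 and 3. It was 0.05, 0.09 and 0.07 in mutant replicates 1, 2 and 3, so that Fielder replicate 1 lay within the mutant range. The members took 0.714%, 0.686% and 0.641% of all counts in the libraries of Fielder, and 0.647%, 0.636% and 0.660% in those of tatfl1-5, and these ranges overlapped. Per gene length (FPKM, the deposited values scaled to gene length and library total), the median level over all members was 3.28 FPKM in Fielder and 3.50 FPKM in the mutant, above 2.58 and 2.49 FPKM over all listed genes. At least 1 FPKM was reached by 72.9% of the members in Fielder and 71.9% in the mutant, and by 64.9% and 65.0% of all genes. The share of members at or above this level was thus higher than that of all genes in both groups, a difference that was not tested.

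**Figure D2:**
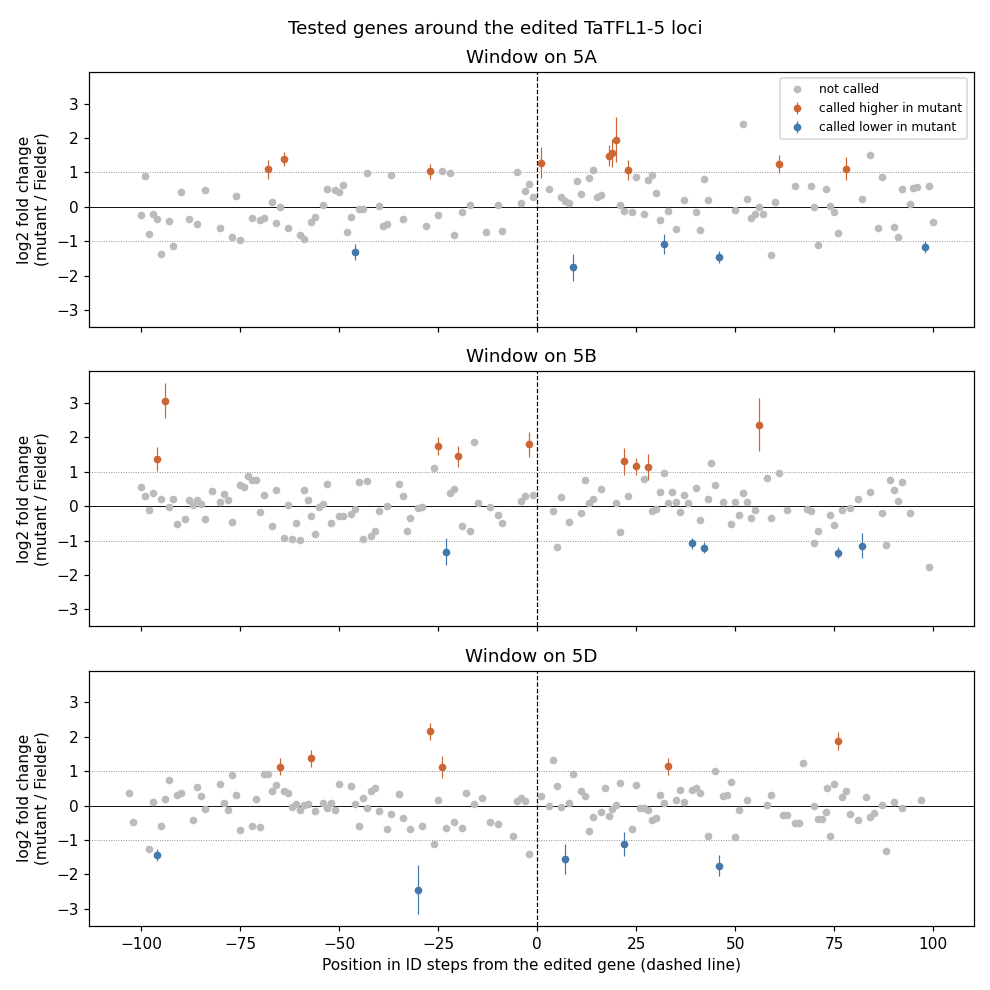
Log2 fold change (mutant over Fielder) of each tested member against its position in ID steps from the edited gene, for 5A, 5B and 5D. Orange points were called higher (25) and blue points called lower (15), with bars of 1 standard error, and grey points were not called.

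Calls were found at all distances in the windows, and with the windows pooled the share was highest nearest the edited genes. Within 25 ID steps of the edited genes, 15 of 100 tested members were called (15%), 11 higher and 4 lower, which is close to the 13.7% of all tested genes. The highest share in such a bin on 1 side was on 5A, where 6 of the 20 tested members 1 to 25 steps after TaTFL1-5A were called (30%), 5 of them higher, a bin singled out after its values were seen. From 26 to 50 steps there were 11 of 109 (10.1%), from 51 to 75 steps 6 of 109 (5.5%) and from 76 to 100 steps 8 of 95 (8.42%). Another 2 tested members on 5D lay farther out. By window, the share within 25 steps was 17.6% on 5A and 20% on 5B, the highest bin of each. On 5D it was 8.33%, below the 10.3% from 26 to 50 steps. On the side of higher IDs 24 of 203 tested members were called (11.8%), and on the side of lower IDs 16 of 212 (7.55%). Differences by distance or side were not tested. Counting only neighbours called in the same direction, 37 of the 40 calls stood alone among tested genes, and the other 3 formed a single run on 5A. On 5B, TraesCS5B02G125100 and TraesCS5B02G125300 were consecutive tested members called in opposite directions, the former higher and the latter lower. The outermost tested members and the nearest tested genes outside the windows were not called. At these 6 window ends the log2 fold changes ran from -1.78 for TraesCS5B02G137500, the last tested member on 5B, to 0.56 for TraesCS5B02G117600, the first one there, and outside them from -0.52 for TraesCS5D02G146100 to 0.81 for TraesCS5A02G138700.

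Of the nearest genes of TaTFL1-5A, the one on the side of higher IDs was called and the other was not. TraesCS5A02G128500, 1 step before it, had 10, 17 and 20 counts in the Fielder libraries, against 14, 21 and 22 in those of tatfl1-5. The groups overlapped, and the log2 fold change was 0.29 ± 0.60 (SE, edgeR adjusted p = 0.762). TraesCS5A02G128700, 1 step after it, had 19, 14 and 38 counts in the Fielder libraries, against 56, 72 and 45 in those of tatfl1-5, and every mutant library was above every Fielder library. Its expression rose from 1.5 ± 0.665 CPM in Fielder to 3.67 ± 0.869 CPM in the mutant (mean ± SD of 3 libraries), where CPM, the usual depth-scaled unit, divides counts by the library size after TMM normalization. The log2 fold change was 1.28 ± 0.44 (SE, edgeR adjusted p = 0.045). This call was not stable. It was kept only without Fielder replicate 3, with adjusted p-values of 0.0865 and 0.126 without Fielder replicates 1 and 2, and 0.0959, 0.174 and 0.0706 without mutant replicates 1, 2 and 3 in edgeR, and log2 fold changes from 1.02 to 1.68. TraesCS5A02G128700 was higher in the mutant while TaTFL1-5A beside it had lower counts there. As the strand setting of the counting is not given in the sources used here, reads of neighbouring or overlapping genes may not be fully separated.

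Beside TaTFL1-5B, the nearest tested genes were not called. TraesCS5B02G127500, 1 step before it, had 64, 35 and 44 counts in the Fielder libraries, against 62, 58 and 67 in those of tatfl1-5, with overlapping groups and a log2 fold change of 0.34 (standard error 0.36). TraesCS5B02G128000, 4 steps after it, had 466, 485 and 518 counts in the Fielder libraries, against 482, 463 and 422 in those of tatfl1-5. Its level was 31.7 ± 1.87 CPM in Fielder and 29.0 ± 1.08 CPM in the mutant (SD, n = 3 each), which gave a log2 fold change of -0.13 ± 0.15 (SE), and it was among the more precisely measured neighbours. Every mutant library was below every Fielder library in CPM.

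Around TaTFL1-5D the nearest tested genes were not called either. TraesCS5D02G136100, 2 steps before it, had 32, 44 and 17 counts in the Fielder libraries, against 11, 15 and 10 in those of tatfl1-5. All mutant libraries were below all Fielder libraries, and the log2 fold change was -1.41 ± 0.60 (SE, edgeR adjusted p = 0.101). It was called lower without Fielder replicate 3 (edgeR adjusted p = 0.0462) and with the filter set to a minimum of 10 counts per library (edgeR adjusted p = 0.0345). TraesCS5D02G136400, 1 step after it, had 125, 148 and 151 counts in the Fielder libraries, against 175, 206 and 139 in those of tatfl1-5, with overlapping groups and a log2 fold change of 0.27 (standard error 0.22). TraesCS5D02G136500, 2 steps after it, had 16 counts in mutant replicate 1 and 0 in every other library, and was not tested. Within 5 steps of the 3 edited genes, 27 members were listed and 21 tested. Of these 21, 2 were called, TraesCS5A02G128700 and TraesCS5B02G127400, both higher in the mutant. Among all tested genes 13.7% were called, and so small a count does not set the nearest members apart.

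TraesCS5B02G127400, 2 steps before TaTFL1-5B, was one of a set of genes matched between the windows. Counts and FPKM of a gene imply its length, and 2 sets of genes had exactly the same implied length in all 3 windows, at positions from the edited gene that differed by at most 15 ID steps. This search was chosen after the values were seen. The files do not say which genes are homoeologs, so these sets are matched by length and position only. In the set of 2130 bases, TraesCS5A02G128400 had 47, 50 and 60 counts in the Fielder libraries, against 75, 65 and 109 in those of tatfl1-5. TraesCS5B02G127400 had 32, 19 and 23 counts in the Fielder libraries, against 106, 82 and 80 in those of tatfl1-5. TraesCS5D02G136000 had 42, 51 and 57 counts in the Fielder libraries, against 79, 47 and 43 in those of tatfl1-5. The 5B gene was the lowest of the set in Fielder, at 0.781 ± 0.301 FPKM against 1.61 ± 0.0593 FPKM on 5A and 1.54 ± 0.0515 FPKM on 5D (SD, n = 3 each). In the mutant it was at 2.60 ± 0.323 FPKM, beside 2.44 ± 0.782 FPKM on 5A and 1.63 ± 0.505 FPKM on 5D (SD, n = 3 each). Its log2 fold change was 1.81 ± 0.37 (SE, edgeR adjusted p = 0.00257), and it stayed called whichever library was left out. The log2 fold changes on 5A and 5D were 0.65 and 0.15, with standard errors of 0.32 and 0.35, and were not called (adjusted p = 0.147 and 0.792 in edgeR). The difference between these 3 genes was not tested.

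In the set of 1800 bases, 16 to 18 steps before the edited genes, all 3 genes had low counts. TraesCS5A02G126900 had 8, 24 and 7 counts in the Fielder libraries, against 16, 14 and 11 in those of tatfl1-5. TraesCS5B02G126000 had 9, 0 and 17 counts in the Fielder libraries, against 39, 22 and 35 in those of tatfl1-5, so that its groups did not overlap. TraesCS5D02G134500 had 17, 2 and 43 counts in the Fielder libraries, against 37, 30 and 12 in those of tatfl1-5. The log2 fold changes were 0.04, 1.87 and 0.36, with standard errors of 0.71, 0.82 and 0.76. None was called at this depth (adjusted p = 0.971, 0.106 and 0.766 in edgeR).

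Another 3 genes at nearby positions, chosen after their values were seen, were lower in the mutant and lowest in 1 library. TraesCS5A02G129500, 9 steps after TaTFL1-5A, had 484, 411 and 550 counts in the Fielder libraries, against 194, 40 and 201 in those of tatfl1-5. TraesCS5B02G128100, 5 steps after TaTFL1-5B and with the same implied length of 1527 bases, had 358, 335 and 470 counts in the Fielder libraries, against 310, 22 and 190 in those of tatfl1-5. TraesCS5D02G137000, 7 steps after TaTFL1-5D, had 296, 294 and 458 counts in the Fielder libraries, against 240, 35 and 90 in those of tatfl1-5. For each gene every mutant library was below every Fielder library in CPM, and mutant replicate 2 was at 20.6%, 9.03% and 22% of the mean of the other two mutant libraries. Such a drop below 50% in mutant replicate 2 was seen in 5 of 291 members with at least 50 counts in both other mutant libraries (1.72%), beside 2.24% over all genes, so that this library was not low in the windows as a whole.

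The 5A and 5D genes of these 3 were called lower and the 5B gene was not. TraesCS5A02G129500 fell from 31.2 ± 4.41 CPM in Fielder to 9.22 ± 5.79 CPM in the mutant (mean ± SD of 3 libraries), a log2 fold change of -1.76 ± 0.38 (SE, edgeR adjusted p = 0.00419), and without mutant replicate 2 the log2 fold change was -1.31. TraesCS5D02G137000 fell from 22.4 ± 3.97 CPM in Fielder to 7.61 ± 6.36 CPM in the mutant (mean ± SD of 3 libraries), with a log2 fold change of -1.55 ± 0.43 (SE, edgeR adjusted p = 0.0157) that was -1.11 without mutant replicate 2 and -2.45 without mutant replicate 1. It was not called without mutant replicate 3 (edgeR adjusted p = 0.0742). TraesCS5B02G128100 had a log2 fold change of -1.19 ± 0.50 (SE, edgeR adjusted p = 0.0981), and ran from -1.84 to -0.66 when 1 library was left out, the latter without mutant replicate 2. Whether the 3 differ from each other was not tested.

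**Figure D3:**
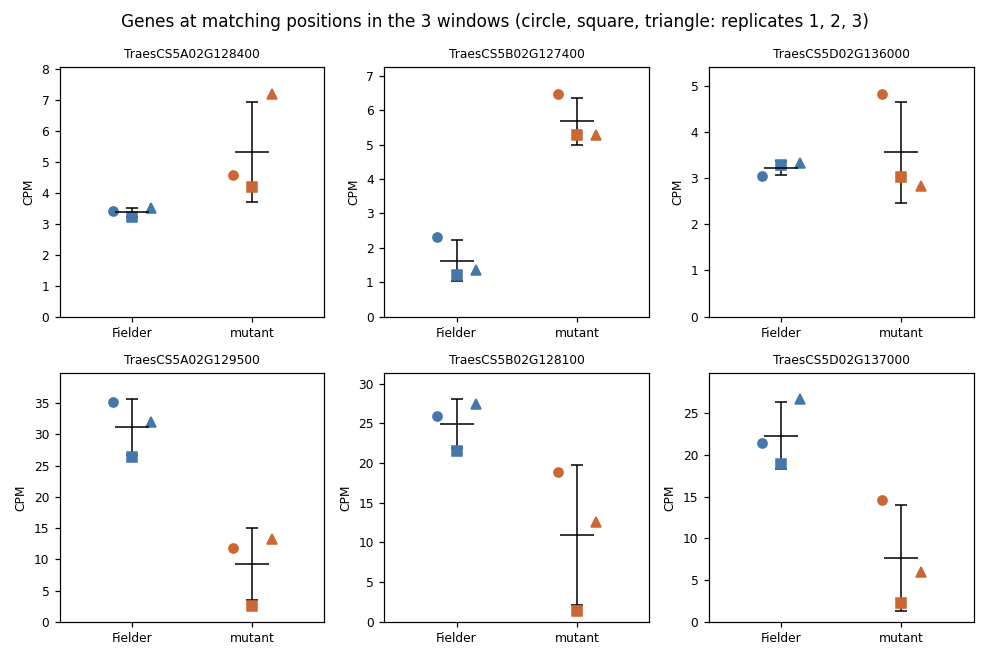
CPM in each library (circle, square and triangle for replicates 1, 2 and 3) with the mean and SD of each group, for the set of 2130 bases in the upper row and the 3 genes low in mutant replicate 2 in the lower row, ordered 5A, 5B and 5D. In the upper row the groups overlap on 5D and not on 5A or 5B, where only TraesCS5B02G127400 was called, and in the lower row the square of the mutant is lowest in each panel.

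In the 5A window the 10 genes called higher had log2 fold changes from 1.03 to 1.95 with a median of 1.27, and the 5 called lower from -1.76 to -1.08. The largest rises and the largest falls lay on the side of higher IDs. TraesCS5A02G130400, TraesCS5A02G130500 and TraesCS5A02G130600, 18 to 20 steps after TaTFL1-5A, were the only neighbouring tested members in the windows called in the same direction, all higher in the mutant. TraesCS5A02G130400 had 36, 61 and 116 counts in the Fielder libraries, against 184, 202 and 201 in those of tatfl1-5. It rose from 4.43 ± 2.12 CPM in Fielder to 12.5 ± 1.11 CPM in the mutant (mean ± SD of 3 libraries), a log2 fold change of 1.48 ± 0.30 (SE, edgeR adjusted p = 0.00275). TraesCS5A02G130500 had 13, 33 and 37 counts in the Fielder libraries, against 124, 64 and 59 in those of tatfl1-5, with mutant replicate 1 the highest. Its log2 fold change was 1.56 ± 0.42 (SE), and without mutant replicate 1 it was 1.19 and not called (adjusted p = 0.11 in edgeR). TraesCS5A02G130600 had 5, 6 and 10 counts in the Fielder libraries, against 42, 23 and 18 in those of tatfl1-5. Its log2 fold change was 1.95 ± 0.65 (SE, edgeR adjusted p = 0.0388), and it lost its call whichever of the 6 libraries was left out, with edgeR adjusted p-values of up to 0.226. The first gene of the run, TraesCS5A02G130400, stayed called whichever library was left out, with log2 fold changes from 1.22 to 1.92.

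The clearest fall on 5A was that of TraesCS5A02G133200, 46 steps after TaTFL1-5A. It had 484, 463 and 516 counts in the Fielder libraries, against 183, 162 and 193 in those of tatfl1-5, with little spread within either group. It fell from 31.6 ± 3.01 CPM in Fielder to 11.4 ± 1.16 CPM in the mutant (mean ± SD of 3 libraries), a log2 fold change of -1.47 ± 0.18 (SE, edgeR adjusted p = 5.8e-05). It stayed called whichever library was left out. The member with the highest mean FPKM on 5A was TraesCS5A02G118600, with 74.1 ± 6.89 FPKM in Fielder and 60.7 ± 2.21 FPKM in the mutant (SD, n = 3 each), and it was not called (log2 fold change -0.22, standard error 0.14). Its groups did not overlap in CPM.

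In the 5B window the 9 genes called higher had log2 fold changes from 1.13 to 3.07 and the 5 called lower from -1.35 to -1.08. TraesCS5B02G118200, 94 steps before TaTFL1-5B, had the largest called change of all members. It had 6, 8 and 8 counts in the Fielder libraries, against 61, 92 and 37 in those of tatfl1-5, which do not overlap. It rose from 0.472 ± 0.0397 CPM in Fielder to 4.03 ± 1.77 CPM in the mutant (mean ± SD of 3 libraries), a log2 fold change of 3.07 ± 0.51 (SE, edgeR adjusted p = 7.2e-04), and stayed called whichever library was left out. TraesCS5B02G133200, 56 steps after TaTFL1-5B, had 0, 8 and 15 counts in the Fielder libraries, against 48, 31 and 39 in those of tatfl1-5. Its log2 fold change was 2.38 ± 0.77 (SE, edgeR adjusted p = 0.0338), and ran from 1.83 without Fielder replicate 1 to 3.19 without Fielder replicate 3. It was not called without Fielder replicate 2 or without any 1 of the mutant replicates, with adjusted p-values of 0.0714, 0.117, 0.0591 and 0.0961 in edgeR.

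The genes called lower on 5B included one with high counts. TraesCS5B02G135200, 76 steps after TaTFL1-5B, had 1621, 1513 and 1377 counts in the Fielder libraries, against 610, 549 and 658 in those of tatfl1-5. It fell from 98.4 ± 18.7 CPM in Fielder to 38.7 ± 4.16 CPM in the mutant (mean ± SD of 3 libraries), a log2 fold change of -1.35 ± 0.17 (SE, edgeR adjusted p = 9.3e-05). TraesCS5B02G125300, 23 steps before TaTFL1-5B, had 47, 79 and 66 counts in the Fielder libraries, against 23, 22 and 32 in those of tatfl1-5, with a log2 fold change of -1.32 ± 0.39 (SE, edgeR adjusted p = 0.0222). It was not called without Fielder replicate 2, mutant replicate 1 or mutant replicate 2, with adjusted p-values of 0.0872, 0.0804 and 0.0692 in edgeR. The most abundant member per length on 5B, TraesCS5B02G118400, was at 179 ± 12 FPKM in Fielder and 200 ± 18.1 FPKM in the mutant (SD, n = 3 each). Its groups did not overlap in CPM, yet its log2 fold change was only 0.23 (standard error 0.13) and it was not called. It lies 2 steps from TraesCS5B02G118200.

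In the 5D window the 6 genes called higher had log2 fold changes from 1.13 to 2.16 and the 5 called lower from -2.44 to -1.11. TraesCS5D02G133600, 27 steps before TaTFL1-5D, had 58, 59 and 47 counts in the Fielder libraries, against 244, 230 and 275 in those of tatfl1-5. Its rise from 3.58 ± 0.757 CPM in Fielder to 15.9 ± 1.88 CPM in the mutant (mean ± SD of 3 libraries) had the smallest adjusted p-value of the members named here (log2 fold change 2.16 ± 0.24, SE, edgeR adjusted p = 3.3e-05). TraesCS5D02G143900, 76 steps after TaTFL1-5D, had 41, 78 and 92 counts in the Fielder libraries, against 269, 200 and 303 in those of tatfl1-5. It rose from 4.45 ± 1.29 CPM in Fielder to 16.4 ± 3.53 CPM in the mutant (mean ± SD of 3 libraries), a log2 fold change of 1.87 ± 0.26 (SE, edgeR adjusted p = 2.1e-04). Both stayed called whichever library was left out.

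Of the genes called lower on 5D, TraesCS5D02G140900 fell from 9.51 ± 1.88 CPM in Fielder to 2.84 ± 0.803 CPM in the mutant (mean ± SD of 3 libraries). It lies 46 steps after TaTFL1-5D and had 112, 136 and 200 counts in the Fielder libraries, against 57, 30 and 47 in those of tatfl1-5 (log2 fold change -1.74 ± 0.30, SE, edgeR adjusted p = 8.5e-04). TraesCS5D02G133300, 3 steps before TraesCS5D02G133600, which rose, had 39, 22 and 60 counts in the Fielder libraries, against 9, 1 and 12 in those of tatfl1-5. Its log2 fold change was -2.44 ± 0.71 (SE, edgeR adjusted p = 0.0209). It was not called without Fielder replicate 3, mutant replicate 1 or mutant replicate 2, with adjusted p-values of 0.0783, 0.0541 and 0.0545 in edgeR. The member with the highest FPKM on 5D, TraesCS5D02G145300, was at 244 ± 45.1 FPKM in Fielder and 250 ± 79.6 FPKM in the mutant (SD, n = 3 each), with overlapping groups. Its implied length was only 356 bases.

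**Figure D4:**
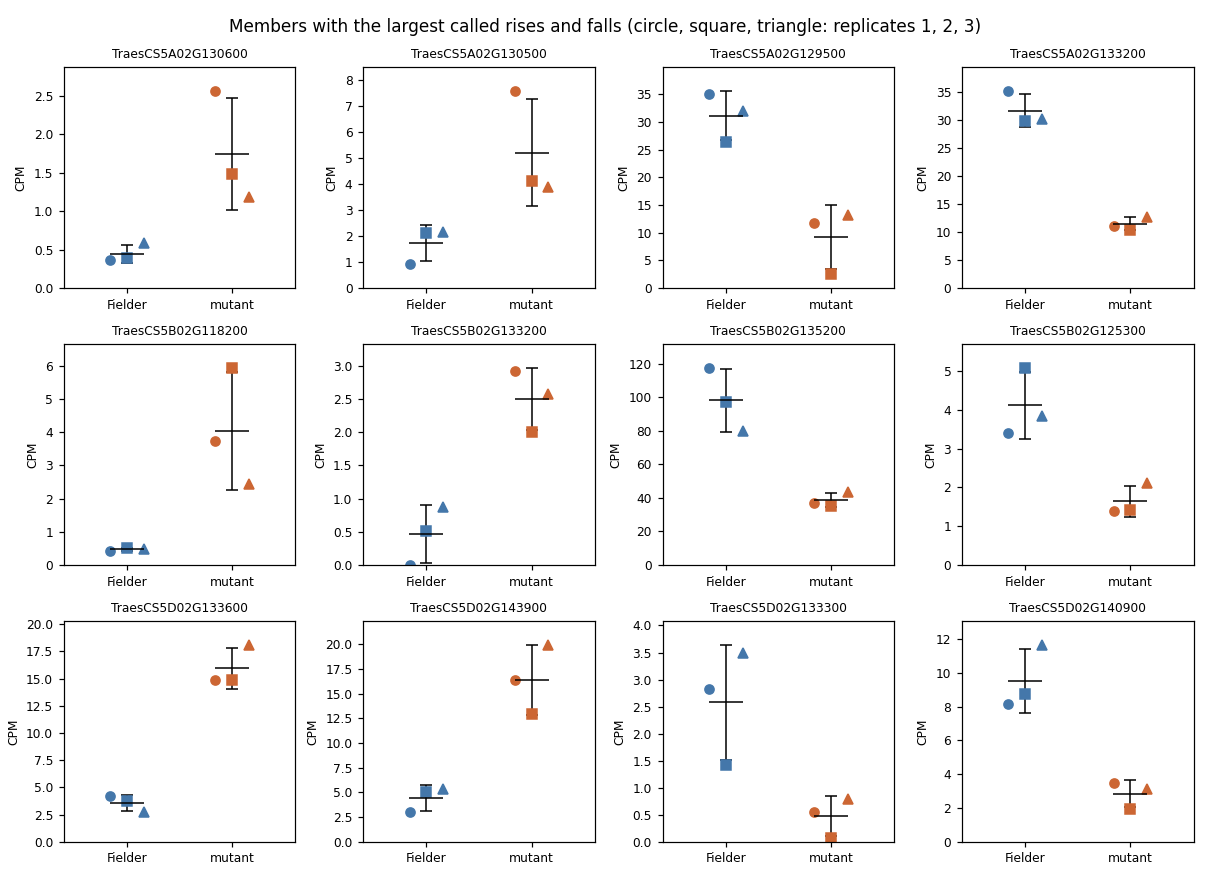
CPM in each library (circle, square and triangle for replicates 1, 2 and 3) with the mean and SD of each group, for the 2 largest called rises and the 2 largest called falls in each window, from 5A in the upper row to 5D in the lower row. The libraries of the groups do not overlap in any panel, as the rule for these genes required, and CPM runs from below 1 to above 100 between panels.

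Over all windows, the median log2 fold change was 1.38 for the 25 genes called higher and -1.32 for the 15 called lower. Of the 40 called genes, 39 had fully separated groups. The call and the separation rest on the same libraries, so this is no separate support for the calls. In the 6 fits that left out 1 library, 19 of the 40 were called every time, 10 higher and 9 lower, 13 were called 3 to 5 times and 8 at most 2 times. These counts were not taken over all called genes and describe the members only. Few members passed a stricter test. When edgeR tested each change against the 2-fold threshold, 4 of the 415 tested members were called, all of them rises, beside 1396 of all 52228 tested genes (2.67%). These were TraesCS5B02G118200, TraesCS5B02G125100, TraesCS5D02G133600 and TraesCS5D02G143900. It called 0 members on 5A, where 8 had an unadjusted p-value under 0.05 in that test and DESeq2, against no change, called 17. The largest fall, that of TraesCS5D02G133300 (log2 fold change -2.44), was not called against the 2-fold threshold either (edgeR adjusted p = 0.222).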

How the data were processed

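The reads were filtered and aligned by the authors to the wheat reference of Ensembl Plants, and for each of the 6 libraries the authors deposited raw counts per gene. The authors also deposited FPKM values, in which counts are divided by gene length in kilobases and by the library total. A gene's counts and FPKM imply 1 length in every library with counts, which was used for gene lengths. The aligner, the counter and the strand setting are not given in the sources used here.

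The groups were tested with edgeR 4.0.16 under R 4.3.3 (filterByExpr, TMM, quasi-likelihood test over all 6 libraries, no covariates), with Benjamini-Hochberg adjustment over 52228 genes. The standard error was the absolute log2 fold change divided by the square root of F. Ratios per library were taken on log2 CPM (prior count 2). On simulated data for this comparison (52228 genes, 200 of them raised or lowered by 2 on the log2 scale and with a mean count of at least 50), edgeR recovered 194 and made 11 false calls. Summaries and figures used Python 3.11.15, pandas 2.3.3, numpy 2.4.6 and matplotlib 3.10.9. The alternatives (other scalings, filters and window widths, limma 3.58.1, DESeq2 1.42.0, the replicate block and leaving out each library) were all planned.

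The members and lists were chosen with earlier results of these data known. The genes named were the nearest tested gene on each side of the edited gene, the 2 largest called rises and falls per window (higher group at 10 counts or more throughout, no overlap), the ends of runs of at least 3 calls, and the member with the highest mean FPKM. Others were named after their values were seen. Shares of counts and p-values cover the spread between these libraries only, since the sources do not say how plants were pooled.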

Additional observations from a re-analysis of the deposited data

How the results depend on the processing

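The number of called members (40) lay between 40 and 49 with RLE size factors, library size alone, no filter, a minimum of 10 counts in every library, DESeq2, limma-trend on log2(FPKM + 0.1), removal of the gene length trend and the 5D window recentred on TaTFL1-5D. The share of all genes called is not given for these scalings, filters and models, nor with 1 library left out. These counts thus do not show whether the lower share of the members held there. The test against the 2-fold threshold called 4 (0 on 5A, 2 on 5B, 2 on 5D, 4 higher and 0 lower, with 9 lower members at an unadjusted p-value under 0.05). limma-trend on log2(FPKM + 1), which understates the change of low genes, called 22 (7 on 5A, 8 on 5B, 7 on 5D, 9 higher). Windows of 50 ID steps on each side hold fewer genes and had 26 calls (9 on 5B, 7 on 5D, 15 higher), with a median log2 fold change of 0.15 on 5A. These calls were 15% of the members tested within 25 steps and 10.1% of those from 26 to 50 steps. Among all tested genes the share was 13.7%, and with the windows pooled each bin beyond 25 steps lay below it. On 5D the members within 25 steps lay below it as well, at 8.33%. These differences were not tested.

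Leaving out 1 library gave 33 to 47 calls, 11 to 19 on 5A, 10 to 17 on 5B, 8 to 12 on 5D, 16 to 28 higher and 13 to 19 lower. Medians of the log2 fold change then ran from -0.03 to 0.10 on 5A, from 0.0005 to 0.12 on 5B and from 0.0026 to 0.0911 on 5D. The median was 0.016 on 5B and -0.0065 on 5D with library size alone, which moved the median of all genes to -0.06. It was 0.0254 on 5B and 0.01 on 5D with limma-trend on log2(FPKM + 1), 0.0135 on 5D on log2(FPKM + 0.1) and 0.092 on 5D without the filter. The cause of these shifts was not tested. TraesCS5D02G145300, not called, went from 0.11 to -0.11 with the length trend removed and to -0.20 without mutant replicate 2, and ran from -0.203 to 0.2551 when 1 library was left out. Over 22 named genes and 348 refits, 303 kept direction and call status, 41 lost the call, 2 gained it and 2 changed sign. Several of the named genes, such as TraesCS5A02G128500, were not called in the main fit and had no call to lose. The 303 refits therefore do not measure how stable the calls were.

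Same-numbered replicates did not deviate together (r from -0.02 to 0.05 across genes, 3 pairs), and for other pairs r ran from -0.05 to 0.05. No shared effect of the number was seen, but 3 pairs cannot show whether samples were collected or sequenced in pairs. With the replicate block 42 members were called (14 on 5A, 15 on 5B and 13 on 5D), of which 37 were among the 40. Genes with few counts, TaTFL1-5A included, limit what can be detected.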
